A study of Homo sapiens with 4 samples.

Results

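Mitochondrial protein import and the chaperones that receive imported proteins were described in OE33 cells after knockdown of ARID1A. The group was set by a list of 37 gene symbols, covering the translocases of both mitochondrial membranes, their import motor, the matrix chaperonin, the processing peptidase and the intermembrane space relay. A gene counted as measured where the array had a probe set paired with it alone, and the brightest such probe set over the 4 arrays stood for it. By this rule 35 of the 37 genes were measured, of 18132 genes in all, and TOMM7 and PAM16 had only probe sets paired with a further gene. The members had 76 probe sets of their own, and 12 members had a single one.

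OE33 is an established human line from an oesophageal adenocarcinoma, and ARID1A is a DNA-binding component of SWI/SNF, a chromatin remodeller. The knockdown group (2 Affymetrix PrimeView arrays) received the ON-TARGETplus SMARTpool ARID1A siRNAs and the mock group (2 arrays) received the ON-TARGETplus Non-targeting Pool. Both groups were otherwise treated alike: transfection with Lipofectamine 24 hours after plating, 50 nM siRNA, medium with 15% serum and harvest 48 hours after transfection. Both rest on this 1 cell line and on 1 siRNA pool each, and the knockdown was partial. The titles call the arrays of each group biological replicates 1 and 2, and nothing in the labels says whether same-numbered arrays share a culture. The p-values set each change against an error estimated from the 2 arrays per group and from all probe sets. They do not cover other cell lines or siRNA pools.

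All levels below are log2 probe set values and all changes are log2 differences, knockdown minus mock, tested with limma over 49293 probe sets and called at a Benjamini-Hochberg adjusted p under 0.05. ARID1A itself stood at 7.53 on both knockdown arrays, against 9.28 and 9.33 on the mock arrays, a change of -1.78 (SE 0.0718, adjusted p = 0.0218). Array medians ran from 5.89 to 5.93. The 6 epithelial markers lay between 11.9 and 14.58 in both groups and the 8 markers of other cell types between 3.26 and 6.88 in knockdown and between 3.03 and 7.15 in mock arrays. Summed, these 8 gave 41.0 to 41.4 in knockdown and 41.8 to 42.0 in mock arrays, none past the test. The 3′ minus 5′ signal of the beta-actin control, a measure of RNA integrity, was 1.21 and 1.10 in knockdown arrays and 1.04 and 0.995 in mock arrays, and its part in the changes below was not tested. For GAPDH it was 0.201 and 0.215 in knockdown arrays, and 0.199 and 0.211 in mock arrays. RNA came from whole wells, so fewer cells with a transcript and less transcript per cell cannot be told apart.

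Nearly all mitochondrial proteins are encoded in the nucleus, made in the cytosol and threaded into the organelle unfolded. The TOM complex is the entry gate of the outer membrane, the SAM complex inserts barrel proteins there, the TIM23 complex passes presequence proteins to the matrix with the help of an HSPA9-driven motor, and the TIM22 complex inserts carriers into the inner membrane. Small TIM chaperones escort hydrophobic proteins across the intermembrane space, the MIA relay of CHCHD4 and GFER traps proteins there by disulphide bonds, and PMPCA with PMPCB cleaves presequences before the HSPD1 and HSPE1 chaperonin folds the product.

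Promoter sequences of 34 of the 37 genes were found in a RefSeq table of GRCh38.p14, each window holding 250 bases before and 50 after the annotated start. The windows below are shown because TOMM6 was the 1 member past the test, TOMM22 is a partner subunit of the same pore whose level did not pass, and HSPD1 shares its upstream region with HSPE1. Each reads 5′ to 3′ along the gene. Capitals mark the ETS-type word CCGGAAG (either strand) and, in HSPD1, the NRF1-type core TGCGCA and the E-box CACGTG; the HSPD1 window was searched for CCGGAAG too and held none. The TOMM6 window is chr6:41787444-41787743 (plus strand), that of TOMM22 is chr22:38681707-38682006 (plus strand) and that of HSPD1 is chr2:197500225-197500524 (minus strand).
TOMM6: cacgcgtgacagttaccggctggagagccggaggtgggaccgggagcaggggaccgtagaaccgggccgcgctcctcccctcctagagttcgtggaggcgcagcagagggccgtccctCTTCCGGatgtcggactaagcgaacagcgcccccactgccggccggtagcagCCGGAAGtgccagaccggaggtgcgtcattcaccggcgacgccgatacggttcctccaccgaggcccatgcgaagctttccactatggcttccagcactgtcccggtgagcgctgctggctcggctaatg
TOMM22: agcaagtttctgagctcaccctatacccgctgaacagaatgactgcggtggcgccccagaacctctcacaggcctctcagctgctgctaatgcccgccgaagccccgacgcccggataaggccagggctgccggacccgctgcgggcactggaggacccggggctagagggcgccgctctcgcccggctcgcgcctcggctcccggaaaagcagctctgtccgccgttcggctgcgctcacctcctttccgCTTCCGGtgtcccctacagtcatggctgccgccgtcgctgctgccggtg
HSPD1: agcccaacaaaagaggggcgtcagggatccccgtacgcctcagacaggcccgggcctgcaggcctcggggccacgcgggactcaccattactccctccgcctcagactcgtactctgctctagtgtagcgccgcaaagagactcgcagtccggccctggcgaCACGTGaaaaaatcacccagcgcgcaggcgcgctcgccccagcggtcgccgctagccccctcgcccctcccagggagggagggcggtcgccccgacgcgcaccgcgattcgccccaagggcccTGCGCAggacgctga

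Counting the start base as 0, the ETS-type word began at -132 and at -80 in TOMM6, and at 1 in TOMM22. Among the members 13 of 34 genes (38.2%) held it in a window, against 12.2% of all 27305 genes with a window. The NRF1-type core was found for 9 of 34 members (26.5%), against 9.76% of all genes, and the E-box for 6 (17.6%), against 8.77%. The words TGATGNAA, of the C/EBP-ATF type, and CCAAT were found for 2 members (5.88%) and 12 members (35.3%), against 4.46% and 39.7% of all genes. All were searched on both strands, and none overlapped another in the windows shown. The windows of HSPD1 and HSPE1, which are transcribed away from each other, shared 204 bases. Measured members with the ETS-type word had a median log2 change of -0.03 over 13 genes, and those without it of -0.01 over 19.

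Across the whole list, the signal at the TOMM6 probe set fell while every other measured member stayed short of the test. The name of that probe set marks probes that may match other transcripts. TOMM6, a small subunit that stabilises the outer-membrane pore, was at 48.3% of its mock level (95% confidence interval 41.6% to 56.2%). With the replicate number as a block its adjusted p was 0.228 at the same change, and with any 1 array left out it was 0.244 to 0.521, while with an intensity trend in the fit TIMM8B passed as well (0.0384). The other 34 members had log2 changes between -0.25 (TOMM40) and 0.18 (TIMM10B), the smallest adjusted p among them in limma being 0.212. At the main probe sets the 95% intervals of these 34 all lay within 0.5 log2 units of no change, a difference below 1.41-fold. Among their other probe sets 4 of 41 had intervals reaching past that bound, 1 of TOMM34, 1 of TIMM10B and 2 dim ones of HSPD1. Passing the test were thus 1 of 35 members (2.86%), against 0.403% of all 18132 genes. By direction, 1 member was lower, against 0.215% of all genes, and 0 were higher, against 0.188%, and with a single gene called these shares say little about the list.

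**Figure D1:**
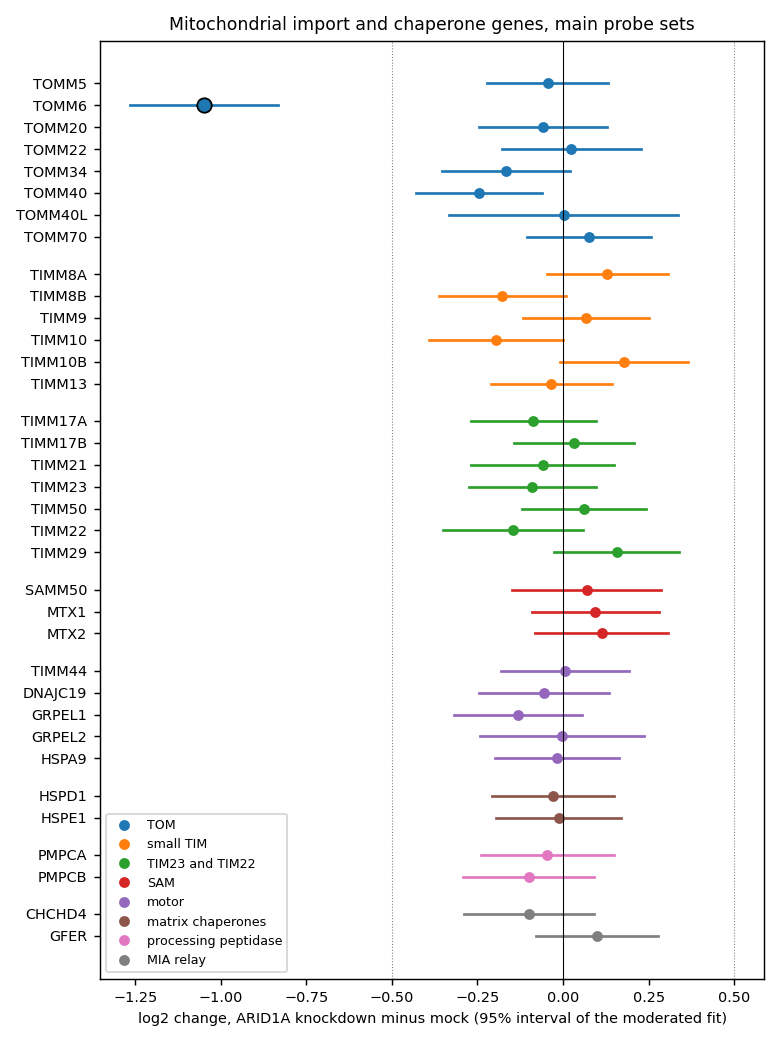
Log2 change of each measured member (knockdown minus mock, points) with the 95% interval of the moderated fit (lines), coloured by role; dotted lines mark 0.5 log2 units either way. TOMM6, outlined in black, lies at -1.05, and the intervals of the other 34 members stay between the dotted lines.

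Of the 35 members 21 had a negative and 14 a positive change, with a median of -0.03 (-0.02 without TOMM6), against 0.00 over all genes. The median size of a change, whatever its sign, was 0.08 log2 units for the members and 0.10 for all genes. Before adjustment, at a limma p under 0.05, 3 members were lower (8.57%), against 7.25% of all genes, namely TOMM6, TOMM40 and TIMM10, and 0 were higher, against 9.76%. The knockdown and mock arrays did not overlap, with knockdown lower, for 13 members (37.1%), against 23.6% of all genes. With knockdown higher they did not overlap for 10 members (28.6%), against 25.8%. With 1 array left out the median of the members ran from -0.06 (without mock replicate 2) to 0.00485 (without mock replicate 1).

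**Figure D2:**
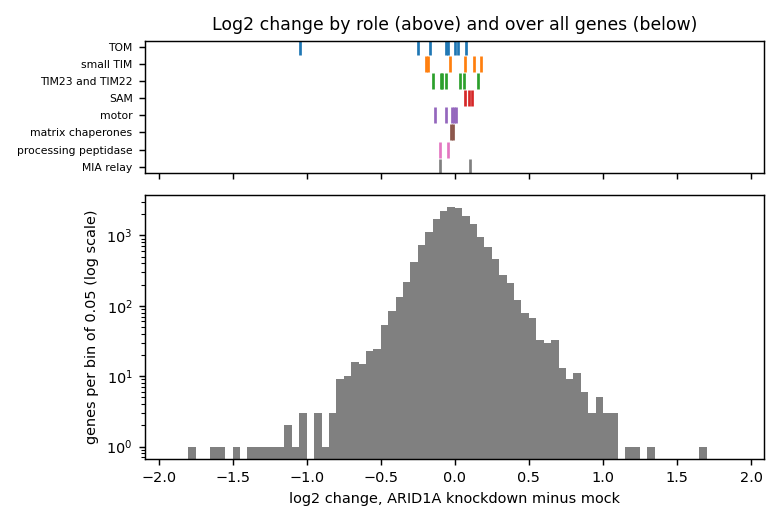
The upper panel gives 1 tick per measured member by role, and the lower panel counts all 18132 genes in bins of 0.05, with a log scale on the vertical axis; both share the axis of log2 change, knockdown minus mock. The members lie within the central bulk of the genes, from -0.25 to 0.18, apart from TOMM6 at -1.05.

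Among the TOM genes, TOMM6 stood at 9.75 and 9.78 on the knockdown arrays, against 10.90 and 10.73 on the mock arrays. Both knockdown arrays lay far below both mock arrays, by much more than the arrays of either group differed from each other. Its means were 9.76 ± 0.0200 in knockdown and 10.81 ± 0.121 in mock cells (SD, n = 2 each), a 2.07-fold fall (log2 change -1.05, SE 0.0870, adjusted p = 0.0312). It ranked as the 13th largest fall of all genes.

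The probe set that stands for TOMM6 is its only one, and its name ends in _x_at, which marks probes that may match other transcripts. Of the 35 main probe sets, 15 have names ending in _s_at or _x_at, the endings left out in the fit on unshared probe sets. Another 4 probe sets are paired with TOMM6 and with its upstream neighbour PRICKLE4 together, for which TOMM6 is also listed as an older name, and PRICKLE4 had no probe set of its own. The brightest of these read 11.05 and 11.02 in knockdown arrays and 12.06 and 11.99 in mock arrays, a change of -0.99 (adjusted p = 0.0261). The next 2 in brightness changed by -1.17 and -1.14 (adjusted p = 0.0261 for both), and at neither did the groups overlap. The dimmest, at 4.61 and 4.45 in knockdown and 4.52 and 4.74 in mock arrays, changed by -0.10 (0.702) and lies near the first quartile of all probe sets (4.26). These signals cannot be assigned to either gene alone. The nearby genes FRS3 and USP49 had changes of 0.07 (adjusted p = 0.758) and -0.12 (0.769).

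**Figure D3:**
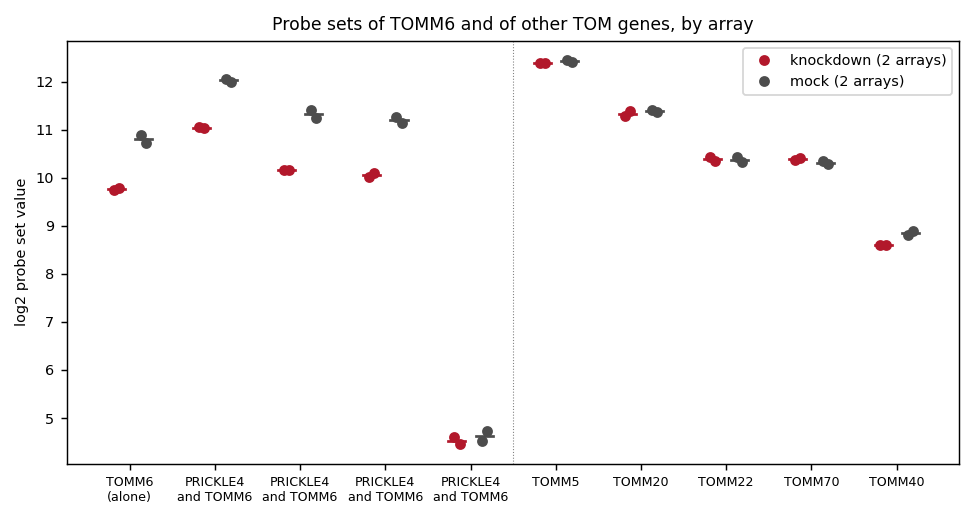
Log2 value on each array (points) and group mean (bars) for the probe set of TOMM6 alone, the 4 probe sets paired with PRICKLE4 and TOMM6, and, right of the dotted line, the main probe sets of 5 other TOM genes; knockdown is red and mock grey. The probe set of TOMM6 alone and the 3 brighter of those paired with both genes separate the groups by about 1 log2 unit, while those of TOMM5, TOMM20, TOMM22 and TOMM70 lie at nearly the same height in both.

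TOMM40, the channel-forming barrel of the pore, stood at 8.59 and 8.61 in knockdown arrays, against 8.81 and 8.88 in mock arrays. Its groups did not overlap, but the change of -0.25 (SE 0.0738) did not pass (adjusted p = 0.212), and its only probe set ends in _x_at. The intervals of TOMM6 (-1.26 to -0.83) and of TOMM40 (-0.43 to -0.06) did not meet. The channel's paralogue TOMM40L read 5.81 and 5.82 in knockdown and 6.01 and 5.62 in mock arrays, with a change of 0.00 and overlapping groups. Its other probe sets changed by -0.19 (adjusted p = 0.291) and -0.04 (0.831), and at neither did the groups overlap. TOMM20, the presequence receptor, changed by -0.06 and TOMM22, the receptor that holds the pore together, by 0.02. TOMM70, the docking receptor for carrier precursors, had a change of 0.08, and TOMM5, another small pore subunit, one of -0.04. TOMM34, a cytosolic co-chaperone of precursors rather than a pore subunit, changed by -0.17 (adjusted p = 0.358), and by -0.35 at its second probe set (0.162). A probe set paired with the small subunit TOMM7 and with C4orf46 changed by 0.10 (0.583). C4orf46 at its own brightest probe set changed by -0.47 (adjusted p = 0.111), and the shared signal cannot be assigned to either gene alone.

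The 6 small TIM chaperones split evenly, 3 with a positive and 3 with a negative change and a median of 0.02, and 0 passed the test. TIMM10, which with TIMM9 forms the main escort complex for carriers, read 10.59 and 10.50 in knockdown arrays, against 10.78 and 10.70 in mock arrays (change -0.20, SE 0.0784, adjusted p = 0.307). Its partner TIMM9 had a change of 0.07. TIMM8B, at 11.18 and 11.16 in knockdown and 11.39 and 11.31 in mock arrays, changed by -0.18 (0.325).

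TIMM8A, the paralogue whose loss causes a deafness and dystonia syndrome, had a change of 0.13 (adjusted p = 0.434), so the 2 paralogues differed by 0.31 in their log2 changes, a difference that was not tested. TIMM13, its partner, had a change of -0.03. TIMM10B, the small chaperone docked on the TIM22 complex, read 9.35 and 9.37 in knockdown and 9.23 and 9.14 in mock arrays (change 0.18, adjusted p = 0.331). Its other probe sets changed by 0.33 (0.211), 0.01 and -0.04, so the probe sets of this gene did not share a direction. The groups did not overlap for any of the 6 genes, 3 with knockdown lower, against 23.6% of all genes, and 3 with knockdown higher, against 25.8%.

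For the inner-membrane translocases, 7 genes were measured and 0 passed, 4 with a negative and 3 with a positive change (median -0.06). TIMM29, a subunit of the carrier translocase, read 8.62 and 8.66 in knockdown arrays and 8.51 and 8.45 in mock arrays (change 0.16, adjusted p = 0.371). TIMM22, the channel of the same complex, read 6.73 and 6.86 in knockdown and 6.90 and 6.98 in mock arrays (change -0.15, adjusted p = 0.444). These 2 subunits of 1 complex thus had changes of opposite sign, neither past the test. TIMM23, the channel of the presequence translocase, had a change of -0.09 (adjusted p = 0.606), and at its second probe set of -0.11. TIMM50, its receptor in the intermembrane space, had a change of 0.06, and TIMM21, which links it to the respiratory chain, one of -0.06. The paralogues TIMM17A and TIMM17B, alternative partners of TIMM23, had changes of -0.09 and 0.03.

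The 3 genes of the SAM complex all had small positive changes (median 0.09), 0 past the test. MTX2, a metaxin that assists the barrel-inserting core, read 10.38 and 10.45 in knockdown arrays and 10.35 and 10.26 in mock arrays (change 0.11, adjusted p = 0.535). MTX1 read 9.78 and 9.77 in knockdown arrays and 9.72 and 9.64 in mock arrays (change 0.09, adjusted p = 0.590). For SAMM50, the core itself, the groups overlapped, with a change of 0.07 (adjusted p = 0.751), which was -0.02 without mock replicate 2.

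In the import motor 5 of 6 genes were measured and 0 passed (median -0.02). GRPEL1, the main nucleotide exchange factor of HSPA9, read 10.59 and 10.52 in knockdown arrays and 10.71 and 10.66 in mock arrays (change -0.13, adjusted p = 0.456). Its second probe set changed by -0.15. DNAJC19, the J-protein that stimulates the motor's ATPase, read 9.63 and 9.66 in knockdown and 9.75 and 9.65 in mock arrays (change -0.06), with overlapping groups. At its dimmer probe set the change was -0.19 (adjusted p = 0.368), and the groups did not overlap. GRPEL2, the second exchange factor, had a change of 0.00 at its main probe set and of 0.25 at the other (adjusted p = 0.229). The motor ATPase HSPA9 had a change of -0.02, with its other 4 probe sets between -0.07 and 0.05, and the membrane tether TIMM44 one of 0.01.

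PAM16, the J-like partner of DNAJC19, had no probe set of its own. A probe set paired with PAM16 and the readthrough locus CORO7-PAM16, and so outside the rule for members, read 8.49 and 8.66 in knockdown arrays, against 9.24 and 9.22 in mock arrays. Its change of -0.65 (SE 0.0854, 95% interval -0.87 to -0.44) missed the threshold (adjusted p = 0.0616). That is a larger difference than for any measured member but TOMM6, and the 2 groups lay more than 0.5 log2 units apart. Probe sets paired with CORO7 and the same readthrough locus changed by -0.13 (adjusted p = 0.470) and -0.04 (0.940), and CORO7 at its own brightest probe set by 0.12 (0.547).

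Neither gene of the matrix chaperonin passed the test. HSPD1 (HSP60) read 13.13 and 13.17 in knockdown arrays and 13.18 and 13.17 in mock arrays, a change of -0.03 with a 95% interval of -0.21 to 0.15 (adjusted p = 0.892). HSPE1 (HSP10), its lid and head-to-head neighbour, read 10.61 and 10.68 in knockdown and 10.67 and 10.65 in mock arrays, a change of -0.01 with an interval of -0.20 to 0.17 (0.958). At the main probe sets of both genes the arrays of the groups overlapped. Probe sets paired with HSPE1 and HSPE1-MOB4 changed by 0.06 and -0.10, neither past the test, and at the second the groups did not overlap. Of the other HSPD1 probe sets, 4 had levels above 11 and changes from -0.12 to -0.06. At these 4 the groups did not overlap, with knockdown lower, against 23.6% of all genes at their main probe sets. The names of these 4 end in _s_at or _x_at, so their probes may match other transcripts. The 2 dim ones, with levels below 5, changed by 0.15 and 0.24. A further bright probe set, paired with HSPD1 and HSPD1P5, changed by 0.01 (adjusted p = 0.978), with overlapping groups.

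The processing peptidase and the disulphide relay did not pass either. PMPCB, the catalytic subunit, read 10.62 and 10.65 in knockdown arrays and 10.79 and 10.68 in mock arrays (change -0.10, adjusted p = 0.576). PMPCA, its substrate-binding partner, read 9.92 and 9.94 in knockdown and 10.03 and 9.92 in mock arrays (change -0.05, adjusted p = 0.826), with overlapping groups. CHCHD4, the oxidoreductase of the relay, read 8.18 and 8.10 in knockdown arrays and 8.27 and 8.21 in mock arrays (change -0.10, adjusted p = 0.571). GFER, the sulfhydryl oxidase that recharges it, read 8.62 and 8.58 in knockdown arrays and 8.52 and 8.48 in mock arrays (change 0.10, adjusted p = 0.550). At their second probe sets CHCHD4 changed by 0.04 and GFER by 0.00, both with overlapping groups.

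**Figure D4:**
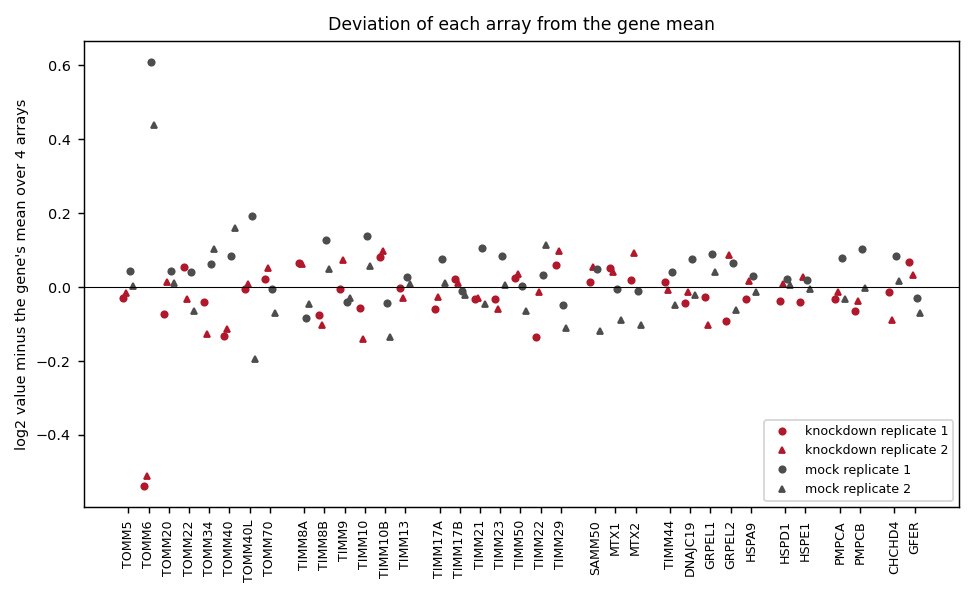
Deviation of each array from the mean of the gene over the 4 arrays (log2 units, vertical axis) for the 35 measured members, ordered by role; red marks knockdown, grey mock, circles replicate 1 and triangles replicate 2. TOMM6 parts by about 1 unit, and most other points lie within 0.2 of the mean.

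A second look at each member came from its further probe sets. For 23 members there were 41 of these, of which 0 passed the test. In 8 members 11 of the 41 had a sign opposite to the main probe set. Before adjustment, 3 of them were lower at a limma p under 0.05, for TOMM34, TOMM40L and PMPCB, and 2 higher, for TIMM10B and GRPEL2, against 7.07% lower and 9.1% higher over all 49293 probe sets.

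A wider list of 40 genes of import, inner-membrane architecture and matrix proteases was read in the same fit, and 0 passed in either direction. Their median change was 0.03, with 25 positive and 15 negative, and before adjustment 4 were higher, against 9.76% of all genes, and 1 lower, against 7.25%, at a limma p under 0.05. AGK, a lipid kinase that is also a subunit of the TIM22 complex, read 7.81 and 7.74 in knockdown arrays, against 8.10 and 8.10 in mock arrays (change -0.33, adjusted p = 0.132). MIPEP, a peptidase that trims presequences after PMPCB, read 9.57 and 9.68 in knockdown and 9.27 and 9.30 in mock arrays (change 0.33, adjusted p = 0.146). The disaggregase CLPB and the unfoldase CLPX had changes of 0.25 (0.207) and 0.24 (0.233). These 4 were named for having the smallest p of the 40.

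Of 15 regulators of mitochondrial gene expression and stress 14 were measured, 0 past the test, while at a limma p under 0.05 before adjustment 3 were higher, against 9.76% of all genes, and 3 lower, against 7.25%. TFB2M, a transcription factor of the mitochondrial genome, read 9.26 and 9.33 in knockdown arrays, against 9.71 and 9.66 in mock arrays (change -0.39, adjusted p = 0.110). ATF4, which drives the integrated stress response, had a change of 0.31 (0.153), DDIT3 (CHOP) of 0.26 (0.214) and ATF5, a factor of the mitochondrial unfolded protein response, of -0.26 (0.203). NRF1 and the ETS factor GABPA, whose words were searched in the promoters, had changes of 0.02 (0.953) and 0.05 (0.867).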

How the data were processed

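RNA of 4 cultures of OE33 cells was measured on Affymetrix PrimeView arrays. The authors deposited log2 values, 1 per probe set and array. RMA and Partek are named in the submitters' processing notes without version or role. RMA gives the probe intensities of all arrays a common distribution, which hides a shift in total mRNA per cell. It also understates changes of dim probe sets. The deposited probe set values still differed a little between arrays, with medians from 5.89 to 5.93. The number of arrays, 2 per group, limits precision.

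From the 49372 rows, 79 control probe sets were left out. The platform's annotation paired 44988 of the 49293 others with 1 gene, 1832 with several and 2473 with none. Groups came from the sample titles. Knockdown was compared with mock by limma 3.58.1 (lmFit, eBayes) in R 4.3.3, two-sided and without pairing, with Benjamini-Hochberg adjustment over 49293 probe sets. Residual degrees of freedom were 2, and the prior added 3.62. Intervals are those of the moderated fit.

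Members and lists were chosen with earlier results of these data known. Values per array were given for members past the test and the 2 of each role with the smallest unadjusted p, with TOMM40L, a paralogue of a named gene, and TIMM10B added after their values were seen; of the other lists, the 4 with the smallest p were named, and NRF1 and GABPA were added after their values were seen. PAM16, TOMM7 and PRICKLE4 probe sets shared between genes were read as pairs. GABPB1 was not analysed here. Gene positions are those of RefSeq promoter windows (GRCh38.p14), while the array's build is not given in the sources used here. The fit was checked on simulated data, and alternatives were a replicate block, 2 normalizations, a filter on dim probe sets, unshared probe sets, gene means, an intensity trend and leaving out each array.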

Additional observations from a re-analysis of the deposited data

How the results depend on the processing

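With the dim filter, the trend, the replicate block and gene means, the TOMM6 change stayed at -1.05, since these settings could not move it. It was -1.05 with arrays centred on their medians and -1.07 with quantile normalization. Both knockdown arrays lay below both mock arrays at this probe set, so leaving out 1 array could not turn its direction. Its log2 change ran from -1.13 to -0.96 with 1 array left out. It lost the call there and, at -1.05, with the replicate block (adjusted p = 0.228). So did ARID1A at -1.78 (-1.80 to -1.75 with 1 array left out). Each of these fits left 1 residual degree of freedom, and the cause of the lost calls was not tested. The numbers were not taken as pairs, since the labels do not say whether same-numbered arrays share a culture. Deviations of same-numbered arrays had a weak correlation of -0.20 over probe sets. With the crossed pairing, chosen after seeing the data, 0 members and 0 genes were called, as with the replicate block. The probe set of PRICKLE4 and TOMM6 that did not pass had a change of -0.10, and this comparison was added after seeing the data.

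Calls among the members numbered 1, with 2 under the intensity trend (TIMM8B joined, adjusted p = 0.0384), 0 with unshared probe sets, where TOMM6 has none, and 0 with any array left out. Over all genes 73 were called, against 286 with arrays centred on their medians, 977 with the dim filter, 1565 with the trend, 356 with gene means, 138 with quantile normalization, 12 with unshared probe sets and 0 with any array left out. Members at an unadjusted limma p under 0.05 numbered 3, all lower, where 7.25% of all genes were lower and 9.76% higher. They numbered 7 (5 lower, 2 higher) with the dim filter, 9 (7 lower, 2 higher) with the trend and 1 (higher) with unshared probe sets. Calls over all genes also rose with the dim filter and the trend. Shares of all genes at an unadjusted p are not given for these settings, so the counts cannot be read as a shift of the list. Of the wider import list 2 passed with the dim filter and 3 with the trend, against 0.

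The median of the members was -0.0649 to 0.00485 with 1 array left out, the lowest without mock replicate 2. For the inner-membrane translocases it was -0.0388 with gene means, -0.0848 with quantile normalization, -0.0488 with unshared probe sets and -0.107 to 0.0166 with an array left out, and for the motor -0.0721 to 0.00485. The chaperonin median was 0.24 with unshared probe sets, where only a dim probe set of HSPD1 (0.24) remained. Sign changes, none past the test, were found in 20 of 367 values of the other 34 members. With quantile normalization these were TIMM17B (-0.00263) and TIMM44 (-0.0213), with gene means TOMM40L (-0.0766) and GRPEL2 (0.12), and with unshared probe sets GRPEL2 (0.25) and HSPD1 (0.24). With 1 array left out the ranges were -0.0281 to 0.0774 for TOMM22, -0.19 to 0.19 for TOMM40L, -0.137 to 0.0166 for TIMM21, -0.0153 to 0.154 for SAMM50, -0.0390 to 0.0514 for TIMM44, -0.0939 to 0.0856 for GRPEL2, -0.0408 to 0.00695 for HSPA9, -0.0476 to 0.0215 for HSPE1 and -0.101 to 0.0100 for PMPCA. The cause of these moves was not tested.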
